A study of Rattus norvegicus with 6 samples.

Results

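miR-18a is a microRNA hairpin that gives rise to a mature strand from each of its sides, miR-18a-5p and miR-18a-3p. Both mature strands, or arms, were taken by name (rno-miR-18a-5p and rno-miR-18a-3p in the table of miRNA counts), so that the account covers 2 of the 693 listed miRNAs. Both passed the filter on low counts that left 418 miRNAs for testing. The pair was selected on the lower read counts of miR-18a-5p in IR, measured in these same 6 libraries, and on the study's interest in that strand. The difference of either arm between the groups is therefore given as a description and carries no test. The tested animals were male Sprague-Dawley rats, 7 to 8 weeks old, whose left hilum was clamped for 45 minutes and then released (IR, 3 libraries). They were compared with rats of the same strain, sex and age that underwent the surgical access without clamping (sham, labelled as control, 3 libraries). Anaesthesia by urethane, ventilation and thoracotomy were described for the surgery, no genetic change or drug treatment separates the groups, and the sources used here do not give the duration of reperfusion. Each sample is 1 library, described by the study as a biological replicate. The labels do not tie samples to animals, so every p-value and SD measures the spread between these libraries, which may be technical in part.

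miRNAs are short RNAs that guide a silencing complex to messenger RNAs, mainly through nucleotides 2 to 8 of the strand, the seed, and lower the translation or stability of those messengers. miR-18a is cut from the polycistronic miR-17-92 transcript, a target of MYC and E2F that is active in dividing progenitor cells, in lymphocyte precursors and in the epithelium of the developing lung, and falls as tissues mature. In human cells the RNA-binding protein hnRNP A1 binds the terminal loop of the miR-18a precursor and promotes its cleavage, a step that its neighbours on the transcript do not need. The study examined miR-18a-5p as a regulator of galanin, a neuropeptide encoded by Gal, in alveolar type II cells.

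The hairpin is shown first because all values below are counts of its 2 arms. In the RefSeq annotation of rat assembly GRCr8 it occupies chr15:98587984-98588079 on the plus strand, as the second of 6 hairpins of the cluster in the order Mir17, Mir18a, Mir19a, Mir20a, Mir19b1 and Mir92a1. It is 96 nucleotides long, and the 5p arm spans its positions 17 to 39 and the 3p arm its positions 58 to 78, counted from 1 at the 5′ end. The arms are in capitals.
Mir18a hairpin: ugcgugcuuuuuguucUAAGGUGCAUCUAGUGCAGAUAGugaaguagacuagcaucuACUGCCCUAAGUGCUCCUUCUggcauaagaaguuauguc

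The mature strands are set beside the strands of the related miR-17 family, with the seed in capitals, because their likeness bears on how reads can be assigned. All sequences are those of RefSeq for GRCr8, where 570 of the 630 named rat miRNAs of the table had a sequence. The 5p arm lies at chr15:98588000-98588022 and the 3p arm at chr15:98588041-98588061, both on the plus strand.
miR-18a-5p: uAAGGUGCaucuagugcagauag
miR-17-5p: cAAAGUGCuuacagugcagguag
miR-20a-5p: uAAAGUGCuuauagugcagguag
miR-20b-5p: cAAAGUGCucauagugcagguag
miR-106b-5p: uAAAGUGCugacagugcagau
miR-93-5p: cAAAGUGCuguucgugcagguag
miR-18a-3p: aCUGCCCUaagugcuccuucu

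The seed of miR-18a-5p, AAGGUGC, is shared by 0 other miRNAs among the 693 mature rat sequences of RefSeq, and so is the seed of miR-18a-3p, CUGCCCU. The 5 members of the miR-17 family shown above differ from miR-18a-5p by the same single seed base, A4G. Here the base of the family member comes first and that of miR-18a-5p last, and positions are counted from 1 at the 5′ end of the strand. Aligned without gaps, miR-20a-5p, the nearest of the 5, differs at 4 of 23 positions (A4G, U9A, A11C and G20A), and miR-17-5p at 6 of 23. The number of mismatches allowed in mapping was not stated. No other listed name had counts near those of either arm, within 5% or 2 reads in every library, so that neither arm shares a set of reads with another name in the way of a duplicated entry.

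miR-18a-5p was the dominant arm and was lower in each IR library than in each sham library. It had 51, 48 and 144 reads in IR replicates 1, 2 and 3, against 259, 249 and 377 reads in sham replicates 1, 2 and 3. The libraries held 3775663 to 11248166 listed miRNA reads, so the counts were set on a common scale as normalized CPM, the reads per 1000000 library reads after scaling by TMM, a trimmed mean of the ratios between libraries. On this scale miR-18a-5p stood at 7.70, 13.7 and 12.1 normalized CPM in the IR libraries, against 32.6, 22.1 and 42.2 in the sham libraries. The highest IR library, replicate 2, lay below the lowest sham library, replicate 2, which was 1.61-fold above it. All IR libraries lay below all sham libraries for 70 of the 418 tested miRNAs (16.7%), which is the background for such a separation. In the deposited TPM, the counts per 1000000 listed reads, the values were 8.09, 12.7 and 12.8 in IR, against 34.7, 23.2 and 36.6 in sham. The exact 95% Poisson intervals, which cover counting error only, reached at most 16.9 TPM in IR replicate 2, against a lowest bound of 20.4 TPM in sham replicate 2.

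miR-18a-3p, the minor arm, was sparse in every library. It had 9, 3 and 18 reads in IR replicates 1, 2 and 3, against 26, 25 and 44 reads in sham replicates 1, 2 and 3. The normalized CPM were 1.36, 0.855 and 1.52 in IR, against 3.28, 2.22 and 4.93 in sham. The groups did not overlap for this arm either, and the lowest sham library was 1.46-fold above the highest IR library. The intervals of single libraries did overlap, with 0.948 to 2.53 TPM in IR replicate 3, against 1.51 to 3.44 TPM in sham replicate 2. At the 3 reads of IR replicate 2 the interval ran from 0.164 to 2.32 TPM.

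**Figure D1:**
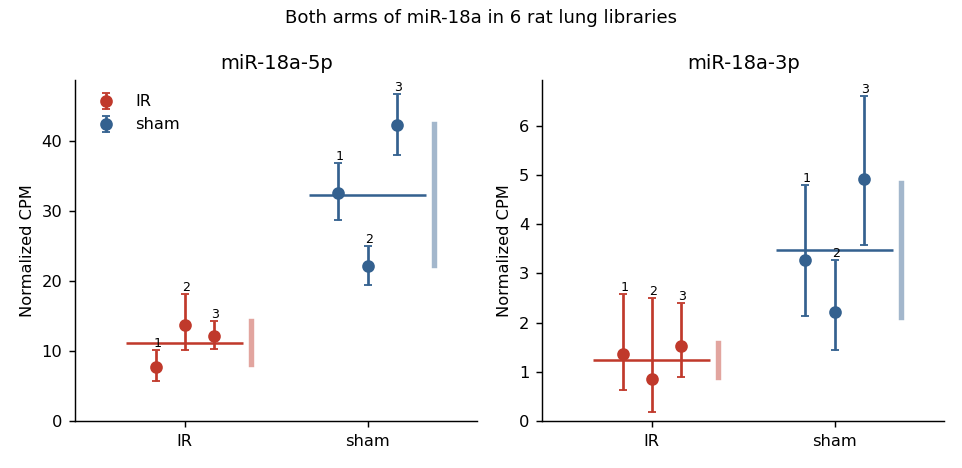
Normalized CPM (vertical axis) of miR-18a-5p (left panel) and miR-18a-3p (right panel) in 3 IR and 3 sham libraries. Points are libraries with their replicate number and the exact 95% Poisson interval of their reads, horizontal lines are group means and the pale bars at the side are the mean ± 1 SD. The IR libraries of miR-18a-5p sit between 7.70 and 13.7, all below the sham libraries.

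The mean level of miR-18a-5p was 11.2 ± 3.11 normalized CPM in IR lungs, against 32.3 ± 10.1 in sham lungs (SD, n = 3 each). Its log2 fold change of IR over sham in the quasi-likelihood model of edgeR was -1.54 with a standard error of 0.32, a level 2.91-fold lower in IR. miR-18a-3p averaged 1.24 ± 0.345 normalized CPM in IR, against 3.47 ± 1.37 in sham (SD, n = 3 each). Its log2 fold change was -1.34 with a standard error of 0.45 in the fit without a filter, and -1.39 with a standard error of 0.42 in the fit on the 418 filtered miRNAs. Ordered from the largest fall, miR-18a-5p stood in place 2 and miR-18a-3p in place 7 of the 418, whose median log2 fold change was -0.01. Across all of them the quasi-likelihood test with Benjamini-Hochberg adjustment called 44 miRNAs at a threshold of 0.05 (10.5%), of which 11 were lower (2.63%) and 33 higher (7.89%).

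Sham replicate 3 was the library with the highest level of both arms. It also stood apart in its make-up, since miR-21-5p, an abundant injury-responsive miRNA, took 24.2% of its reads, against 9.66% to 13.5% in the other libraries, and its TMM factor was the lowest at 0.867. Without it the log2 fold change of miR-18a-5p was -1.31, and that of miR-18a-3p was -1.06 in the fit without a filter. Leaving out each other library in turn gave -1.73 to -1.36 for miR-18a-5p. With scaling by total counts, which does not use the TMM factors, the value was -1.49.

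**Figure D2:**
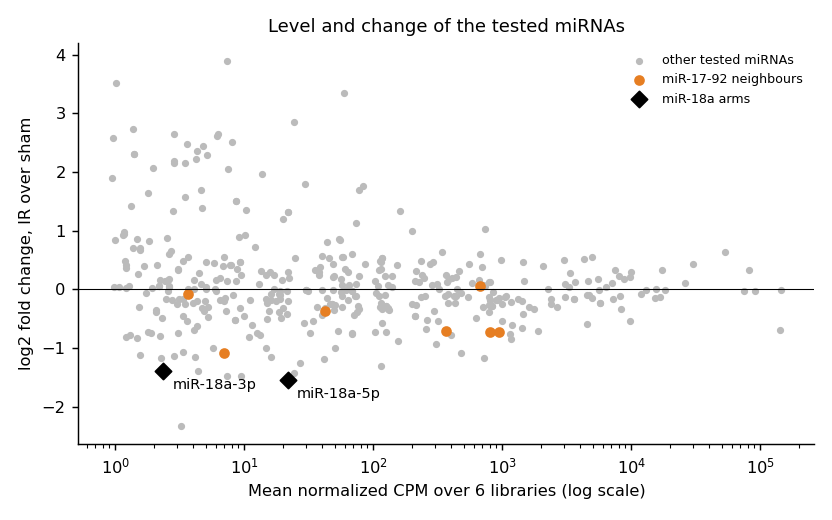
Log2 fold change of IR over sham (vertical axis) against the mean normalized CPM over the 6 libraries on a log scale (horizontal axis) for the 418 tested miRNAs, 1 point each. Black diamonds are the arms of miR-18a, at -1.54 and -1.39, orange points are the other tested arms of the miR-17-92 list, and grey points are all other miRNAs.

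The variation of miR-18a-5p within a group exceeded what counting alone gives. In sham its coefficient of variation over libraries was 31.2%, against 5.87% expected from the read numbers, and in IR it was 27.8%, against 12.7%. The spread depends on the scaling. In the deposited TPM it was smaller, with 31.5 ± 7.24 in sham and 11.2 ± 2.69 in IR (SD, n = 3 each). For the sparse miR-18a-3p the observed 27.8% in IR was below the 35.3% expected from counting, and in sham it was 39.3%, against 17.9%. The coefficient of biological variation that edgeR fitted was 0.283 for miR-18a-5p. It was below this value for 42 of the 50 miRNAs nearest to it in level, whose median was 0.232.

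By number of reads, miR-18a-5p was a miRNA of middling abundance. It ranked 294, 261 and 276 in IR replicates 1, 2 and 3, against 227, 237 and 208 in sham replicates 1, 2 and 3, among 541 to 607 miRNAs with at least 1 read. miR-18a-3p ranked 401 to 436 in IR, against 319 to 362 in sham. The level closest to that of miR-18a-5p, averaged over all 6 libraries, belonged to the striated muscle miRNA miR-1-3p, with 31.2 ± 3.52 normalized CPM in IR and 12.5 ± 1.68 in sham (SD, n = 3 each), and to miR-3571, whose counts are nearly those of miR-1-3p. Just below it came miR-125b-1-3p, with 23.8 ± 3.9 in IR and 19.4 ± 0.938 in sham, and miR-350, with 18.4 ± 5.0 in IR and 24.4 ± 3.62 in sham. Counts were not corrected for length, but mature miRNAs are of nearly equal length, and the arms of miR-18a hold 23 and 21 nucleotides.

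The question whether the arms changed in step was read from their ratio within each library, which needs no scaling. The 5p arm made up 85.0%, 94.1% and 88.9% of the reads of the hairpin in IR replicates 1, 2 and 3, against 90.9%, 90.9% and 89.5% in sham replicates 1, 2 and 3. The groups overlapped, and the IR libraries enclosed all sham libraries. With reads summed over the group the share was 89.0% in IR (exact 95% binomial interval 84.7% to 92.5%, 243 of 273 reads), against 90.3% in sham (88.3% to 92.1%, 885 of 980 reads). As a ratio this was 8.10 reads of the 5p arm for each read of the 3p arm in IR, against 9.32 in sham. The share differed by -1.30 percentage points, less than the SD of 4.58 points between the IR libraries, and the 30 reads of the 3p arm in IR limit what could be seen.

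Relative to its transcript neighbours, miR-18a-5p was also lower in IR. The 12 listed arms of the miR-17-92 list held 10198 to 23463 reads in the IR libraries, against 27910 to 34224 in the sham libraries. miR-18a-5p took 0.368%, 0.471% and 0.614% of them in IR replicates 1, 2 and 3, against 0.928%, 0.795% and 1.10% in sham replicates 1, 2 and 3. The mean share was 0.484% ± 0.123 in IR, against 0.941% ± 0.154 in sham (SD, n = 3 each), and the groups did not overlap. All IR libraries lay below all sham libraries in this measure for 8 of the 418 tested miRNAs (1.91%). miR-18a-5p was selected on its lower reads in these libraries, so this percentage and the one below are a background and not a test. Since miR-17-5p, miR-19b-3p and miR-92a-3p have a further copy on the X chromosome with the same mature sequence, the share was also taken without them. It was then 1.38%, 1.56% and 2.26% in IR, against 3.00%, 2.66% and 3.09% in sham, again without overlap, as for 4 of the 418 tested miRNAs (0.957%).

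**Figure D3:**
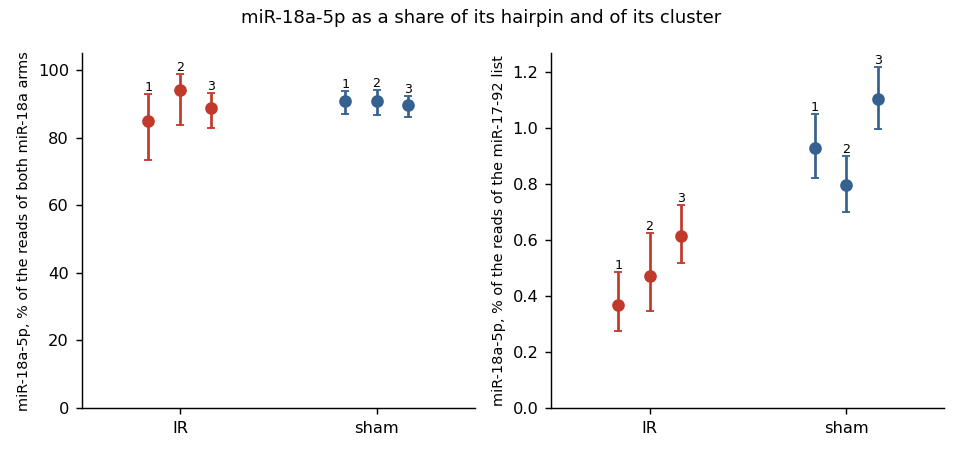
miR-18a-5p reads as a percentage of the reads of both miR-18a arms (left panel) and of the 12 listed arms of the miR-17-92 list (right panel), in 3 IR and 3 sham libraries. Points are libraries with their replicate number and bars are exact 95% binomial intervals. The shares of the hairpin overlap between the groups, whereas the shares of the cluster lie at 0.368% to 0.614% in IR and 0.795% to 1.10% in sham.

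The main strand of each neighbour was then taken as a yardstick. For every 100 reads of miR-17-5p, whose hairpin precedes that of miR-18a on the transcript, there were 3.5, 3.75 and 4.90 reads of miR-18a-5p in IR, against 6.4, 6.32 and 8.31 in sham. For every 100 reads of miR-20a-5p, which targets the same sites as miR-17-5p, there were 1.5, 1.71 and 2.48 in IR, against 3.28, 2.94 and 3.39 in sham. Both ratios were lower in every IR library. Such a separation was found for 6 of 417 tested miRNAs relative to miR-17-5p (1.44%) and for 4 of 417 relative to miR-20a-5p (0.959%). These percentages and those below describe the background. They do not test miR-18a-5p, which was selected on its lower reads in the same libraries. On the log2 scale the mean ratio to miR-17-5p was -4.64 in IR, against -3.85 in sham, a difference of -0.80, and the difference relative to miR-20a-5p was -0.79. Relative to miR-92a-3p, the last strand of the transcript, the difference was -0.80, with 1.10, 1.87 and 1.75 reads for every 100 in IR, against 2.56, 2.14 and 3.49 in sham (0.719% of tested miRNAs separated in this way). Relative to miR-19a-3p, from the hairpin that follows miR-18a, it was -1.09 (1.2% separated). Relative to miR-19b-3p, of the same family, it was -1.54 (6.95% separated). Relative to miR-17-1-3p, the opposite arm of the first hairpin, the difference was -0.36 and the groups overlapped, at 209 to 369 reads for every 100 in IR, against 228 to 490 in sham.

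The neighbours, listed for their place on the same transcript, were tested across all miRNAs. Of the 10 other listed arms of the miR-17-92 list, 7 passed the filter, and 2 of the 7 were lower in IR, 0 were higher and 5 did not pass, beside 2.63% of all tested miRNAs called lower. The members and this list were taken up with earlier results of these data known, so the calls are not independent of those results. The median log2 fold change of the 7 was -0.72, beside -0.01 for all 418, and 6 of the 7 lay below 0, beside 51.2% of all 418. miR-92a-3p, which acts on integrin and endothelial genes, stood at 699, 733 and 695 normalized CPM in IR, against 1276, 1029.7 and 1212 in sham. It fell by 0.73 on the log2 scale, with a standard error of 0.13 (edgeR, adjusted p = 0.0203). Because of the X-linked copy of the same mature sequence, the reads of miR-92a-3p cannot be assigned to this transcript alone. The opposite arm of the hairpin on chromosome 15, miR-92a-1-5p, had a log2 fold change of -0.08 and did not pass. miR-17-1-3p stood at 3.62, 3.71 and 5.81 normalized CPM in IR, against 10.5, 9.67 and 8.63 in sham. It fell by 1.09 on the log2 scale, with a standard error of 0.28 (edgeR, adjusted p = 0.0471). The call of miR-17-1-3p was lost without any 1 of the 6 libraries, at log2 fold changes of -1.34 to -1.01, and that of miR-92a-3p without IR replicate 1 or IR replicate 3, at -0.75 and -0.67.

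The other strands of the list ranged from the levels of miR-92a-3p down to single reads. miR-17-5p was at 220.2, 365 and 248 normalized CPM in IR, against 510, 349 and 508 in sham, and miR-20a-5p was at 512, 801 and 489 in IR, against 994, 752 and 1245 in sham. Their log2 fold changes of -0.72 and -0.73 did not pass the edgeR test. With limma-trend on log2(TPM + 1) miR-20a-5p passed and miR-17-1-3p did not, so that the 2 neighbours called there were miR-92a-3p and miR-20a-5p. In both miR-17-5p and miR-20a-5p the IR libraries overlapped with sham through IR replicate 2. miR-19a-3p, at -0.38, and miR-19b-3p, at 0.06, did not pass either. The groups overlapped for both, with 497 to 930 normalized CPM of miR-19b-3p in IR, against 570.3 to 748 in sham. The 5p arm of the last hairpin, miR-92a-1-5p, was at 3.57 ± 0.344 in IR, against 3.78 ± 0.602 in sham (SD, n = 3 each). The arms miR-19a-5p, miR-20a-3p and miR-19b-1-5p were too sparse for the test, with 0, 2 and 7 reads over the IR libraries, against 1, 15 and 3 reads over the sham libraries.

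**Figure D4:**
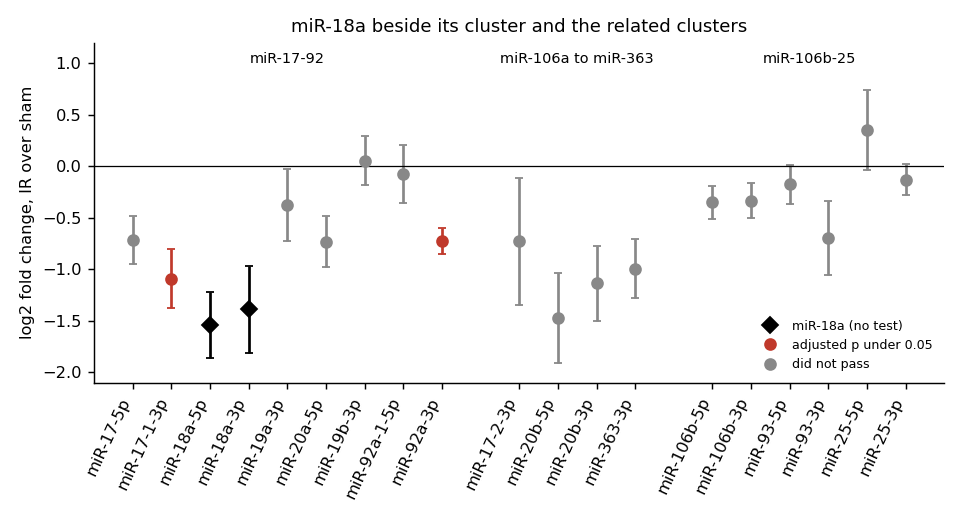
Log2 fold change of IR over sham (vertical axis, bars are ± 1 standard error, 3 IR and 3 sham libraries) for the tested arms of miR-17-92, in the order of the hairpins, and of the related miR-106a to miR-363 and miR-106b-25 clusters. Black diamonds are the arms of miR-18a, given without a test, red points passed the edgeR test across all miRNAs and grey points did not. Within miR-17-92 the values run from -1.54 for miR-18a-5p to 0.06 for miR-19b-3p.

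In the rat 2 further clusters carry members of the same families. The miR-106a to miR-363 cluster of the X chromosome had 0 of its 4 tested arms past the threshold in the edgeR test. All 4 nevertheless lay below 0 (51.2% of all tested did), with a median log2 fold change of -1.06. At an unadjusted p under 0.05 there were 3 (12.2% of all tested were lower at that level), and 2 were called by DESeq2 (5.15% of the miRNAs it tested were called lower), 3 by edgeR's likelihood ratio test (5.74%) and 2 by limma-trend on log2(TPM + 1) (2.87%). miR-20b-5p, the X-linked relative of miR-20a, stood at 4.08, 7.98 and 3.45 normalized CPM in IR, against 12.0, 8.69 and 20.5 in sham. Its log2 fold change of -1.48 did not pass the test. For every 100 reads of miR-20b-5p there were 189, 171 and 351 reads of miR-18a-5p in IR, against 273, 254 and 206 in sham, and the groups overlapped. miR-363-3p, which carries the seed of the miR-92 family, was at 34.0 ± 4.95 in IR, against 67.5 ± 25.3 in sham (SD, n = 3 each), and its log2 fold change of -0.99 did not pass the test. The miR-106b-25 cluster, within the replication gene Mcm7, had 0 of its 6 tested arms called, whether by the quasi-likelihood test of edgeR, by DESeq2, by the likelihood ratio test or by limma-trend, and 0 at an unadjusted p under 0.05. Its median log2 fold change was -0.26, and its summed level was 1990.4 ± 59.7 normalized CPM in IR, against 2243 ± 226 in sham (SD, n = 3 each).

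The 5 strands that differ from miR-18a-5p by the seed base A4G were thus spread over the 3 clusters. All 5 lay below 0 (51.2% of all tested did), from -1.48 for miR-20b-5p to -0.18 for miR-93-5p, and 0 of the 5 passed the edgeR test. At an unadjusted p under 0.05 there were 3, miR-17-5p, miR-20a-5p and miR-20b-5p (12.2% of all tested were lower at that level). DESeq2 and the likelihood ratio test of edgeR each called 1, miR-20b-5p. limma-trend on log2(TPM + 1) called 2, miR-20a-5p and miR-20b-5p, beside 5.15%, 5.74% and 2.87% of all miRNAs called lower by DESeq2, the likelihood ratio test and limma-trend. miR-741-3p, the remaining miRNA with a seed 1 base away, did not pass the filter. The reads of these strands far outnumber those of miR-18a-5p, with 12004 reads of miR-20a-5p over the IR libraries, against 27484 over the sham libraries.

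miRNAs whose levels ran most like miR-18a-5p were ranked by Pearson's r over the 6 libraries on log2(normalized CPM + 1). The measure is a description over 6 points that share library, depth and the split into IR and sham, so that any miRNA differing between the groups in the same direction scores high. Among 417 miRNAs the highest r belonged to miR-15b-5p at 0.983, with the same order of the 6 libraries (Spearman's rho 1.0). miR-15b-5p stood at 97.2, 124 and 106 normalized CPM in IR, against 203, 176 and 223 in sham. In both miRNAs replicate 2 was the highest of the IR libraries and the lowest of the sham libraries. Next came miR-130b-5p at 0.960, miR-16-3p at 0.956, let-7a-5p at 0.956 together with miR-3596a, which has nearly the same counts, and miR-466b-2-3p at 0.949. miR-130b-5p and miR-466b-2-3p also had the same order of the 6 libraries (rho 1.0). let-7a-5p was at 5226 ± 119 normalized CPM in IR, against 6169 ± 484 in sham (SD, n = 3 each), a far smaller difference in the same order of groups. On log2(TPM + 1), without TMM scaling, r was 0.967 for miR-15b-5p and 0.743 for let-7a-5p.

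Within its own transcript the likeness was uneven. miR-92a-3p ranked 7 with an r of 0.946, miR-17-5p ranked 9 with 0.937, miR-20a-5p ranked 15 with 0.914, and the other arm, miR-18a-3p, ranked 25 with 0.886. miR-17-1-3p ranked 35 with 0.850. miR-19a-3p ranked 93 with 0.643, miR-19b-3p ranked 185 with 0.205 and miR-92a-1-5p ranked 212 with 0.01. The lowest r of all belonged to miR-99b-3p at -0.975, miR-3548 at -0.951 and miR-200a-5p, of the epithelial miR-200 family, at -0.944. miR-200a-5p was at 337 ± 7.26 normalized CPM in IR, against 245 ± 14.0 in sham (SD, n = 3 each).

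**Figure D5:**
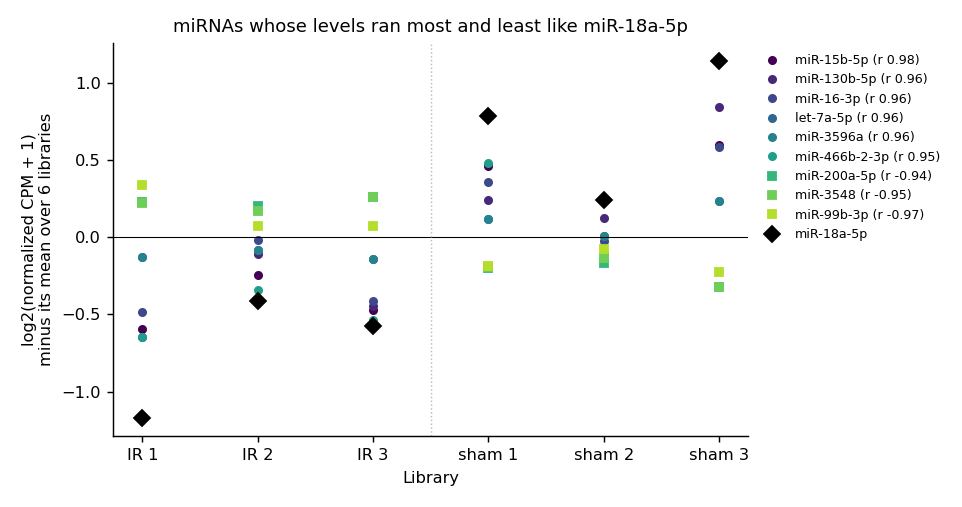
Level of miR-18a-5p (black diamonds), of the 6 miRNAs with the highest Pearson's r with it (circles) and of the 3 with the lowest (squares) in each library (horizontal axis), as log2(normalized CPM + 1) minus the miRNA's own mean over the 6 libraries (vertical axis). The circles lie below their mean in all 3 IR libraries as miR-18a-5p does, with r of 0.949 to 0.983.

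In whole lung, fewer cells of a type and less of a miRNA in each cell cannot be told apart, so the miRNAs typical of cell types were summed beside miR-18a. The lymphocyte list, led by miR-150-5p, summed to 1027 to 1202 normalized CPM in IR, against 1725 to 1796 in sham, and 1 of its 5 tested miRNAs was lower (2.63% of all tested). miR-150-5p made up most of this sum, at 855 ± 139 in IR, against 1455 ± 67.0 in sham (SD, n = 3 each). For the other tested members the groups overlapped, with miR-342-3p at 197 to 265 in IR, against 195 to 301 in sham. miR-155-5p lay above 0, at a log2 fold change of 0.24 that did not pass the test. The list of myeloid cells and all leukocytes, led by miR-142-5p, summed to 1315 to 1645 in IR, against 1812 to 3046 in sham. Of its 4 tested miRNAs, 0 were called by the edgeR test. At an unadjusted p under 0.05, 2 were lower (12.2% of all tested), and 1 was lower in DESeq2 (5.15% of the miRNAs it tested). The groups overlapped for miR-142-5p, miR-223-3p and miR-223-5p, and only miR-142-3p was lower in each IR library than in each sham library. The mesenchymal list, led by miR-199a-3p, summed to 2332 to 2486 in IR, against 3225 to 3687 in sham, with 1 of 3 lower beside the same 2.63%. All 3 were lower at an unadjusted p under 0.05 and 2 in DESeq2, beside the same 12.2% and 5.15%. The sums of all 3 lists were lower in each IR library than in each sham library, as were miR-18a-5p and 16.7% of all tested miRNAs. The part of these lists in the lower level of miR-18a-5p was not tested.

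Other lists overlapped between the groups or had higher sums in IR. The epithelial miR-200 family summed to 19075 to 19618 normalized CPM in IR, against 13192 to 16188 in sham. The edgeR test called 0 of its 9 miRNAs. At an unadjusted p under 0.05, 3 were higher, beside 26.3% of all tested that passed in either direction. DESeq2 called 2 higher, beside 13.7% of the miRNAs it tested that it called in either direction. The list of liver and gut epithelium, led by miR-192-5p, summed to 1137 to 1518 in IR, against 453 to 813 in sham, with 2 of 3 higher (7.89% of all tested). The endothelial miR-126 list was at 83221 to 105494 in IR, against 88128 to 111283 in sham, and the smooth muscle list averaged 151211 in IR, against 151699 in sham. The erythroid list ranged from 1493 to 2155 in IR, against 1234 to 4049 in sham, where replicate 3 was highest. The lists of ciliated airway epithelium and striated muscle overlapped as well. Of the 5 tested miRNAs of striated muscle, 1 was higher (7.89% of all tested), miR-1-3p, at a log2 fold change of 1.31. The sum of that list was led by miR-1b, at 465 ± 37.8 in IR, against 486 ± 35.1 in sham (SD, n = 3 each). Every library thus held miRNAs of endothelium, smooth muscle and epithelium, the main compartments of the labelled tissue.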

How the data were processed

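Small RNA of rat lung was sequenced in 3 IR and 3 sham libraries. The table deposited by the authors holds read counts of each miRNA and TPM, which equal those counts per 1000000 listed reads with no length term. The submitters' processing notes name Bowtie. The build, annotation, mismatch rule and treatment of multiple matches were not stated. All value columns were assigned to a sample (0 left out).

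The analysis ran under R 4.3.3 and used edgeR 4.0.16 (filterByExpr with minimum count 10 and total 15, TMM, quasi-likelihood test, Benjamini-Hochberg threshold 0.05) with DESeq2 1.42.0 and limma 3.58.1 as alternatives. Shares, ratios and plots were made in Python 3.11.15 (scipy 1.17.1, matplotlib 3.10.9). Standard errors were derived from the F statistic, as the absolute log2 fold change over its square root. The test was checked on simulated counts. Library depth was 3775663 to 11248166 reads, at which 3 reads equal 0.267 to 0.795 TPM. Intervals are 95% exact intervals and cover counting error only.

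The members, lists and tests were chosen with earlier results of these data known. The named miRNAs are the members, the 3 related clusters, those with the members' seeds, the 6 highest and 3 lowest in r, the 4 nearest in level, and the leading miRNA of a marker list. miR-21-5p and miR-741-3p, outside this rule, were named after their values were seen, as were members of the marker lists other than the leading one. miR-17-2-3p was moved to the X-linked list after the annotation was read. Alternatives were other scalings, filters, tests, pseudocounts (1 and 0.1), the replicate block, leaving out each library, and 2 added after seeing the data. The galanin 3′UTR, qPCR and cell culture data were not analysed here.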

Additional observations from a re-analysis of the deposited data

How the results depend on the processing

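The log2 fold change of miR-18a-5p kept its direction in all 15 alternatives, from -1.73 to -1.31, and that of miR-18a-3p in all 14, from -1.64 without sham replicate 2 to -0.93 with limma-trend on log2(TPM + 1), and from -1.64 to -1.06 with 1 library left out. miR-18a-3p had no value with 10 reads in every library, which it does not reach. The difference in the share of the hairpin, IR minus sham, ran from -2.47 to -0.17 percentage points with 1 library left out. That of the share of the miR-17-92 reads was -0.44 points, from -0.54 to -0.35 with 1 library left out. It was -0.78 points with miR-19b-3p and miR-92a-3p taken out of the denominator and -1.09 with miR-17-5p taken out as well, an alternative chosen after seeing the data, because the denominators are smaller. The summed shares were 0.512% in IR, against 0.947% in sham, for the full list. They were 1.29% against 2.07% and 1.85% against 2.93% for these 2 denominators. The larger differences in points are therefore not larger proportional falls.
The number of miRNAs called, 44 in the quasi-likelihood test, was 26 with 10 reads in every library, 69 with DESeq2 and 0 with the replicate block, and 2 to 57 with 1 library left out. Single libraries that moved it were IR replicate 3, which left 2 calls when taken out, IR replicate 2 with 17, sham replicate 3 with 21 and IR replicate 1 with 24. The 2 neighbours lower in IR became 1 with no filter, with 10 reads in every library, with total counts and with limma-trend on log2(TPM + 0.1), 0 with the replicate block, and 0 to 1 with 1 library left out. The 0 arms called in the related clusters became 2 with no filter, with total counts, with DESeq2 and with either limma-trend, 3 with the likelihood ratio test, and 0 to 2 with 1 library left out. The cause was not tested.
The IR and sham libraries share replicate numbers. The deviations of same-numbered libraries from their group means correlated at -0.23, -0.39 and -0.18 across miRNAs. Differently numbered libraries gave -0.10 to 0.31. With 3 libraries in each group these values cannot decide whether the samples were paired. With the replicate block the log2 fold change of miR-18a-5p was -1.54. With 30 reads over the IR libraries, miR-18a-3p is limited by depth.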
